A study of Mus musculus with 24 samples.

Results

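The naive pluripotency factors described here are 10 transcription factor genes, Esrrb, Klf2, Klf4, Klf5, Tbx3, Tfcp2l1, Nr5a2, Nr0b1, Zfp42 and Prdm14, chosen by name. All 10 were listed among the 23095 genes of the J1 table and the 25476 genes of the tet-off table, and all 10 passed the minimum of 2 reads in total. The data are bulk RNA-seq of poly(A) RNA from mouse pluripotent cells, with 24 libraries in 12 groups of 2 replicates. The study asked how expanded potential stem cells (EPSCs) differ from embryonic stem cells (ESCs), and what they need of Oct4, Sox2 and Nanog.

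In the first table, 3 groups came from wild-type J1, an established mouse ESC line. J1 ESCs grew in DMEM with fetal bovine serum and LIF with 2i, which is the GSK3 inhibitor CHIR99021 with the MEK inhibitor PD0325901. D-EPSCs were J1 cells kept in N2B27 medium with a little serum replacement, with LIF, CHIR99021, dimethindene maleate and minocycline hydrochloride. L-EPSCs were J1 cells kept in DMEM/F12 with serum replacement, with LIF, CHIR99021, PD0325901, A-419259, XAV939, JNK inhibitor VIII and SB203580, the last 4 of which inhibit Src family kinases, tankyrase, JNK and p38. Whether the sequenced J1 ESCs grew on feeder cells or on gelatin is not stated. The base medium, the serum and the inhibitors changed together, so their parts in any J1 comparison cannot be told apart. In the second table, 9 groups came from the lines ZHBTc4 (Oct4-cKO), 2TS22C (Sox2-cKO) and NgcKO (Nanog-cKO). Each is a single established line that lacks the endogenous gene and lives on a tet-off transgene of it, which doxycycline (Dox) silences, and this holds for the ESCs and the untreated L-EPSCs too. Each line was sampled as ESCs, as L-EPSCs without Dox and as L-EPSCs with Dox. A Dox time and dose are stated for the morphology and protein of these lines, while the time before RNA was taken and a medium for the tet-off ESCs are not given in the sources used here.

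These factors form the network that holds mouse ESCs in a state like the epiblast before implantation. LIF acts through Stat3 to raise Klf4 and Tfcp2l1. Inhibition of GSK3 relieves Esrrb, Nr5a2, Klf2 and Tfcp2l1 of repression by Tcf7l1, and inhibition of MEK stops the Fgf and ERK signal that drives cells out of the state. Members can replace each other in part, and several, among them Klf4, Klf5, Esrrb, Nr5a2 and Tfcp2l1, can help to reset primed or somatic cells.

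The sequence at the start sites is shown first, as a description that was not tested against the changes of the members. Each window holds 250 bases before and 50 bases after a RefSeq start site in GRCm38.p6, 5′ to 3′ on the strand of the gene, and 7 of the 10 members had at least 1 window, 9 windows in all. On both strands, 4 motifs were searched, TCAAGGTCA (the half-site that Esrrb and Nr5a2 bind), ATGCAAAT (the octamer of Oct4), TTCNNNGAA (a STAT site) and GGGTGTGG (a Klf site). The windows shown are those of Esrrb (chr12:86360867-86361166, plus strand), Zfp42 (chr8:43306960-43307259, minus strand) and Nr0b1 (chrX:86191525-86191824, plus strand), with any match in capitals. The last holds no match. It is shown because Nr0b1 had the lowest counts of all members with Dox in the Oct4-cKO and Sox2-cKO lines.
Esrrb: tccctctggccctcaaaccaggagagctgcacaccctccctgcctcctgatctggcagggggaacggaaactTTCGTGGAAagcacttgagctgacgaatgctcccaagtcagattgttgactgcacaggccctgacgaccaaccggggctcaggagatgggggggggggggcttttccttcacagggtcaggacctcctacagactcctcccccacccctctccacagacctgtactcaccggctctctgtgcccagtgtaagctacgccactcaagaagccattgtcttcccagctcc
Zfp42: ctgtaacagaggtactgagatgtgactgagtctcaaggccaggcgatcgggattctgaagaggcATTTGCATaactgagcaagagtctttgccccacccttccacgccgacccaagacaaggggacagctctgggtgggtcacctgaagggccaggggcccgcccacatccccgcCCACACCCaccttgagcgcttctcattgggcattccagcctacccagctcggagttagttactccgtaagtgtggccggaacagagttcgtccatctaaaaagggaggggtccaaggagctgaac
Nr0b1: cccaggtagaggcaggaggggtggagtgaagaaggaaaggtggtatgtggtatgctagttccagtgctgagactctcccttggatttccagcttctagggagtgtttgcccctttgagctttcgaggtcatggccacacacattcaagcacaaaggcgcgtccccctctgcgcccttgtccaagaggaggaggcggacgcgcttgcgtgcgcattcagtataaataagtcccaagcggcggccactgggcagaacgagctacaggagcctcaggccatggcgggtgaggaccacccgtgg
The Esrrb window held a STAT match 178 bases before the start, and a STAT match was found in 8.3% of all 32851 windows. Zfp42 had the octamer on the reverse strand 186 bases before the start, a motif found in 1.74% of all windows, and a Klf match on the reverse strand 75 bases before it, found in 3.56%. No window of the other members, of Nr0b1 or of the second Esrrb start held any of the 4 motifs, and the half-site was found in 0.423% of all windows. A match describes letters and was not tested as a binding site.

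Libraries held between 10807631 and 15069899 reads on genes. Values are normalized counts, the reads on a gene divided by the size factor of the library, and the J1 and tet-off tables were normalized separately, so no test spans them. The targeted genes followed the labels. In Oct4-cKO L-EPSCs, Pou5f1 (Oct4) was at 6420.1 and 6316 without Dox and 162 and 184 with Dox. In Sox2-cKO L-EPSCs, Sox2 was at 4966 and 4701 without and 47.02 and 53.1 with Dox. In Nanog-cKO L-EPSCs, Nanog was at 9119 and 8847 without and 3166 and 3112 with Dox, so a larger share of its reads was left than for the other targets. Gene counts do not separate reads of the transgene from reads of what is left of the endogenous gene. The labels do not say whether replicates are separate cultures, so all p-values measure the spread between these libraries, which may be technical. In bulk RNA, fewer cells that express a gene and less of its RNA per cell cannot be told apart.

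Between the J1 EPSC types, the sums of ERK feedback and Wnt target genes were both higher where the medium holds an inhibitor of that signal. Summed over 7 ERK feedback genes, which ERK signalling raises, J1 ESCs had 6156 to 6186 normalized counts, the libraries labelled D-EPSC 8778 to 8934 and those labelled L-EPSC 13498 to 13767, although the L-EPSC medium holds the MEK inhibitor and the D-EPSC medium does not. The ESC medium holds that inhibitor too, so a D-EPSC sum above that of ESCs follows the media. Summed over 6 Wnt target genes, the values were 1673 to 1799 in ESCs. They were 259 to 287 in the libraries labelled D-EPSC and 1707 to 1815 in those labelled L-EPSC. The L-EPSC medium holds the tankyrase inhibitor, which lowers Wnt signalling. Each medium also holds the GSK3 inhibitor CHIR99021, so the order they should give for Wnt targets is not settled here. Against ESCs, L-EPSCs had 2 of the 6 called higher and 2 lower, and D-EPSCs 1 higher and 4 lower. In the tet-off lines the ERK feedback sum was lower in untreated L-EPSCs than in ESCs, at 3312 to 3349 against 12850.0 to 13192 in the Oct4-cKO line, for example. Genes of feeder fibroblasts also differed. Against ESCs, D-EPSCs had 2 of 8 markers called higher and 3 called lower (median log2 fold change 0.016), while L-EPSCs had none higher and 6 lower (median -1.42). Their sum, most of it from the collagen genes Col1a1, Col1a2 and Col3a1, was 90096 to 92285 in J1 ESCs, 56003 to 56269 in D-EPSCs and 18676 to 19261 in L-EPSCs, while the 7 listed in the tet-off table summed to at most 621 in any library. Dcn was at 1596 in D-EPSCs against 627 in ESCs and Lum at 503 against 357, so the falling sum does not hold for each marker. No marker of the 8 was at or under 3 reads in the J1 groups. Against ESCs, D-EPSCs also had 6 of 7 formative and primed epiblast genes called higher and 1 lower (median log2 fold change 2.504), while L-EPSCs had 3 higher and 1 lower (median 0.26). L-EPSCs set directly against D-EPSCs had 1 higher and 3 lower. By the methods both EPSC types were kept without feeders before RNA-seq. J1 ESCs were grown on feeder cells or on gelatin, and which was used for RNA-seq is not stated. Feeders in the ESC cultures, if used, cannot be told apart from the change of medium. Whether the J1 labels hold, and what part the fibroblast RNA has in the J1 values, was not tested, and J1 results below are those of the libraries as labelled.

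**Figure D1:**
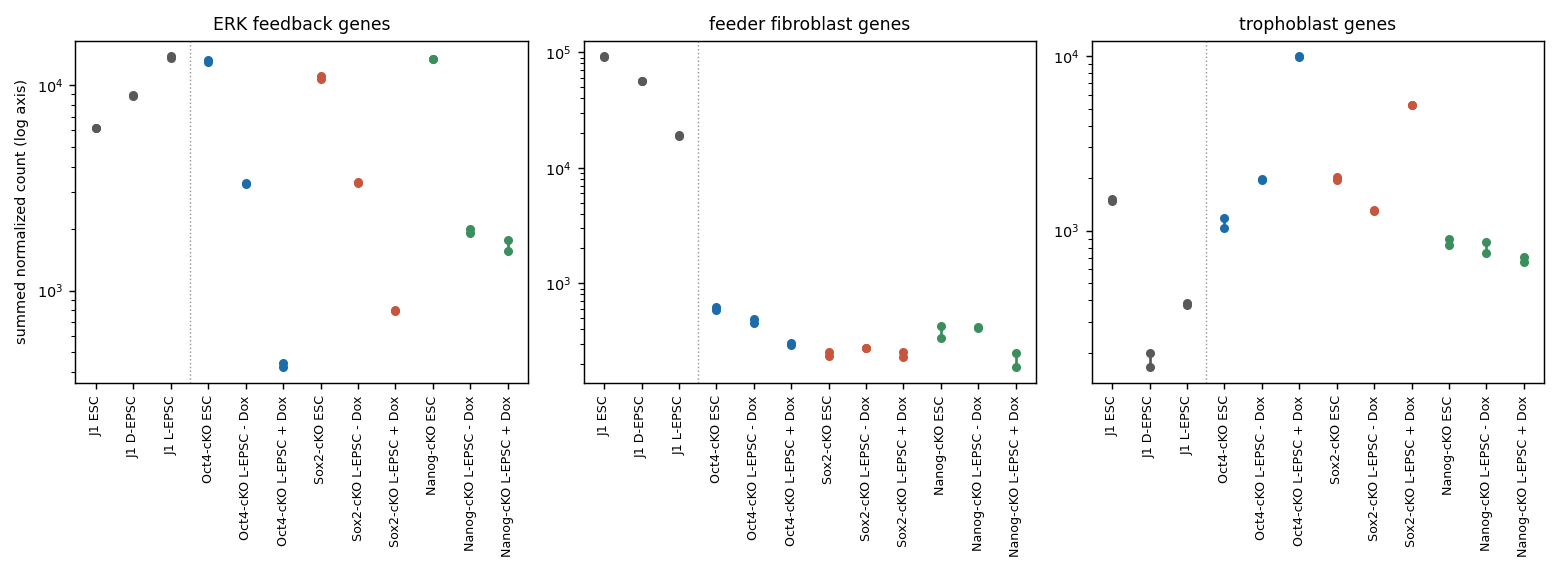
Summed normalized counts of the ERK feedback, feeder fibroblast and trophoblast genes in each group on a log axis. Joined points are the lowest and highest of 2 libraries, colours stand for the J1, Oct4-cKO, Sox2-cKO and Nanog-cKO lines, and the dotted line parts the 2 tables. ERK feedback genes were highest among the J1 groups in L-EPSCs (13498 to 13767) but lower in L-EPSCs than in ESCs of each tet-off line.

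The members spanned a wide range of levels, which can be compared between genes only per kilobase of exon. In J1 ESCs, Zfp42 was the highest at 5273 ± 44.2 normalized counts per kilobase (SD over 2 libraries), followed by Klf2 at 2971 ± 129.7. Esrrb at 1634 ± 16.9 and Tfcp2l1 at 1582 ± 12.2 came next, with spreads that did not overlap. Klf5 at 1099 ± 23.1 and Klf4 at 1089.9 ± 8.41 did not differ beyond their spread. The lowest were Tbx3 at 789, Nr5a2 at 349, Prdm14 at 330.0 and Nr0b1 at 267, and of these Nr5a2 and Prdm14 had overlapping spreads. Zfp42 also led in the ESCs of the Oct4-cKO line (6578) and the Sox2-cKO line (3269), while in Nanog-cKO ESCs Klf5 (3295) was ahead of Zfp42 (3095). In Dox-treated Oct4-cKO L-EPSCs the order began with Klf5 (1087) and ended with Esrrb (7.21) and Nr0b1 (0.318).

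**Figure D2:**
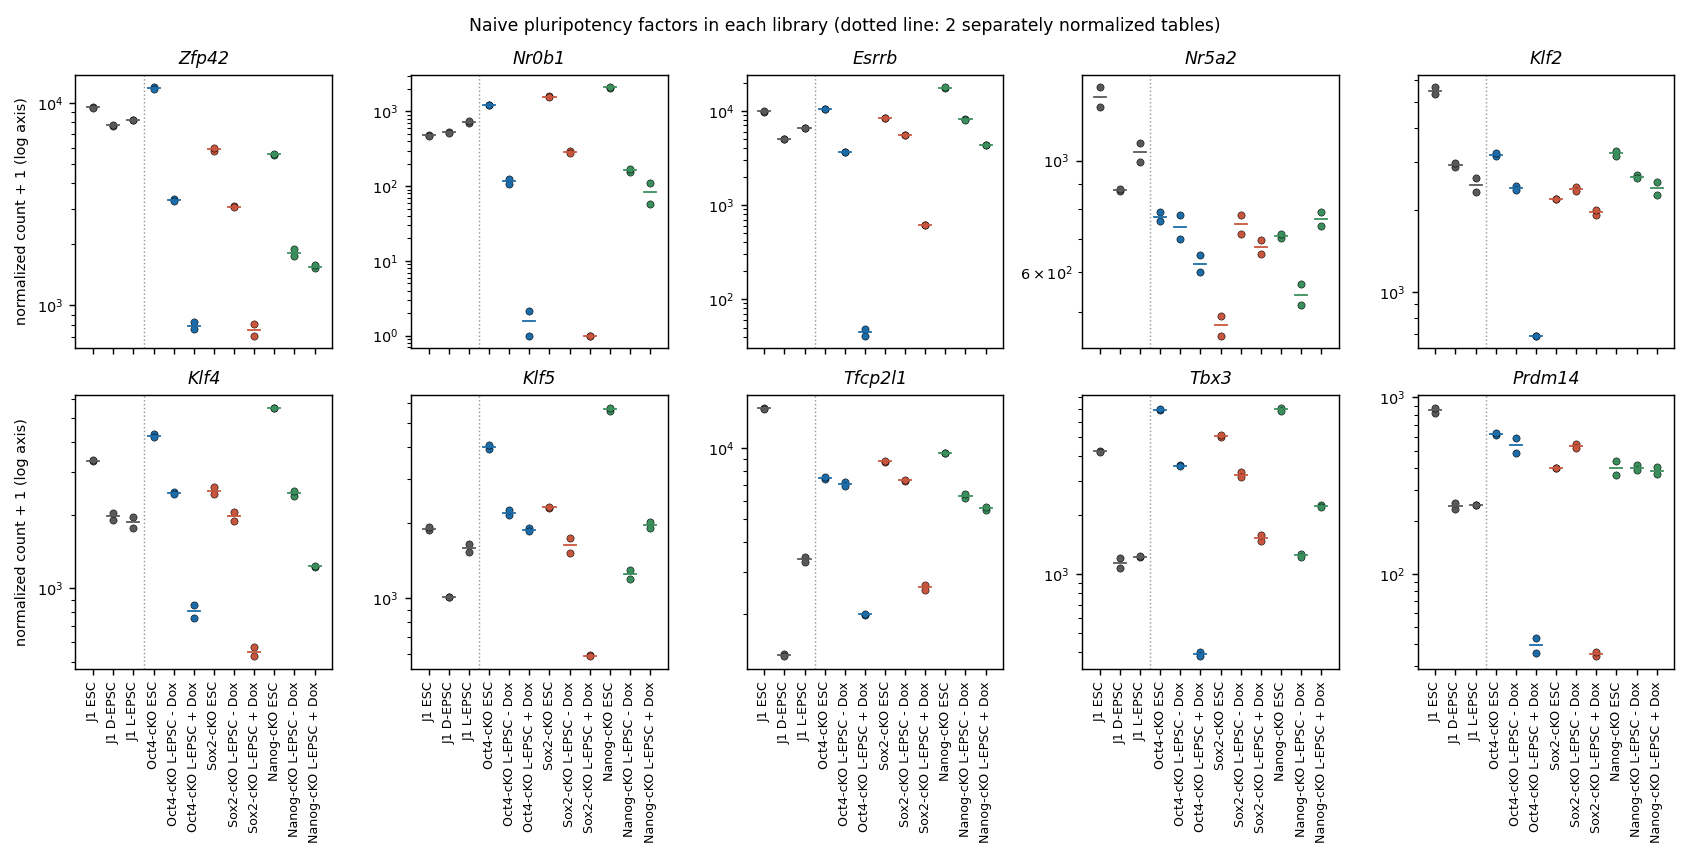
Normalized count plus 1 of each member in every library, on log axes that differ between genes. Points are libraries, short lines are means of 2, colours stand for the line, and the dotted line parts the 2 separately normalized tables. Nr0b1 fell to 0 or 1.15 normalized counts with Dox in the Oct4-cKO and Sox2-cKO lines, while Nr5a2 stayed between 448 and 791 in all tet-off libraries.

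The J1 comparisons ask which members change when ESCs are moved to either EPSC medium. In the libraries labelled D-EPSC, 8 of the 10 members were lower than in ESCs and none was higher, against 9.98% lower and 10.8% higher of all 21533 genes tested. A call needed an adjusted p under 0.05 in limma and a log2 fold change beyond 0.6. In those labelled L-EPSC, 5 members were lower and none was higher, against 11.5% and 8.8% of all genes. The median log2 fold change of the members was -0.91 in D-EPSCs and -0.72 in L-EPSCs, while the medians over all genes tested were 0.013 and 0. Among better measured genes, whose mean normalized count was 10 or more, 13.7% were lower in D-EPSCs and 15.7% in L-EPSCs. Both comparisons use the same ESC libraries. Of 7 LIF and Stat3 targets, of which Klf4 and Tfcp2l1 are members here, 3 were lower in D-EPSCs and 4 in L-EPSCs and none was higher, with medians of -0.40 and -0.83.

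Of the 3 nuclear receptors, Esrrb, an orphan receptor that binds next to Oct4 and Nanog at many ESC enhancers, was at 9809 and 9954 in J1 ESCs, 5040.3 and 5022 in D-EPSCs and 6544 and 6521 in L-EPSCs. The groups did not overlap, and Esrrb fell to 50.9% of the ESC level in D-EPSCs (log2 fold change -0.97, SE 0.021, limma adjusted p = 5.4e-08). In L-EPSCs it was at 66.1% of the ESC level, just short of the fold change threshold (log2 fold change -0.60, SE 0.021, limma adjusted p = 5.48e-07), which it passed without ESC replicate 1 (-0.61). Nr5a2, a receptor that can stand in for Oct4 in reprogramming, was at 1278 and 1399 in ESCs, 870.0 and 877 in D-EPSCs and 1082 and 994 in L-EPSCs. It was lower in D-EPSCs (log2 fold change -0.61, SE 0.061, limma adjusted p = 0.00013) and short of the threshold in L-EPSCs (log2 fold change -0.37, SE 0.061, limma adjusted p = 0.00203). The D-EPSC call of Nr5a2 was lost without ESC replicate 2, at a log2 fold change of -0.55. Nr0b1 (Dax1), a receptor without the usual DNA-binding domain that can restrain Oct4, was at 491 and 476 in ESCs, 531 and 521 in D-EPSCs and 708 and 755 in L-EPSCs. It alone among the members had a higher mean in L-EPSCs than in ESCs, at a log2 fold change just under the threshold (log2 fold change 0.60, SE 0.06, limma adjusted p = 0.000138). Nr0b1 was called higher there with TMM scaling (0.601), edgeR (0.601) or median centring (0.618), and without ESC replicate 1 (0.619) or L-EPSC replicate 1 (0.643).

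The Krüppel-like factors Klf2, Klf4 and Klf5 share a zinc finger DNA-binding domain and many target sites. Klf2 was at 5317 and 5656 in ESCs, 2876 and 2976 in D-EPSCs and 2331 and 2615 in L-EPSCs, without overlap between ESCs and EPSCs. It fell in D-EPSCs (log2 fold change -0.91, SE 0.056, limma adjusted p = 9.29e-06) and in L-EPSCs (log2 fold change -1.15, SE 0.056, limma adjusted p = 2.65e-06). Klf4, the LIF-responsive member, was at 3317 and 3353 in ESCs, 1916 and 2047 in D-EPSCs and 1772 and 1963 in L-EPSCs, with both EPSC groups below both ESC libraries. It fell in D-EPSCs (log2 fold change -0.75, SE 0.054, limma adjusted p = 2.14e-05) and in L-EPSCs (log2 fold change -0.84, SE 0.054, limma adjusted p = 1.17e-05). Klf5, which also acts in trophectoderm, was at 1864 and 1920.1 in ESCs, 1011 and 1005 in D-EPSCs and 1524 and 1642 in L-EPSCs. It was lower in D-EPSCs (log2 fold change -0.91, SE 0.047, limma adjusted p = 3.41e-06) but did not pass in L-EPSCs (log2 fold change -0.26, SE 0.047, limma adjusted p = 0.00303).

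Tfcp2l1, a target of LIF and Stat3 that also answers to Wnt signalling, had the lowest log2 fold change of all members. Its values were 14748 and 14588 in ESCs, 1353 and 1328 in D-EPSCs and 3484 and 3325 in L-EPSCs. The 3 groups were far apart, and Tfcp2l1 was at 9.14% of the ESC level in D-EPSCs (log2 fold change -3.45, SE 0.031, limma adjusted p = 9.69e-10) and at 23.2% in L-EPSCs (log2 fold change -2.11, SE 0.031, limma adjusted p = 9.75e-09). Tbx3, a T-box factor downstream of PI3K signalling, was at 4261 and 4206 in ESCs, 1208 and 1079 in D-EPSCs and 1219 and 1240.0 in L-EPSCs. It fell to 27.01% in D-EPSCs (log2 fold change -1.89, SE 0.053, limma adjusted p = 1.58e-07) and 29.04% in L-EPSCs (log2 fold change -1.78, SE 0.053, limma adjusted p = 2.76e-07). The exons of Tbx3 overlap an antisense gene in NCBIM37, and the strand setting of the counting is not given, so some of its reads may belong there.

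Prdm14, which represses Fgf receptor signalling and de novo DNA methylation genes, was at 817 and 875 in ESCs, 231 and 251 in D-EPSCs and 246 and 244 in L-EPSCs. It fell to 28.5% in D-EPSCs (log2 fold change -1.81, SE 0.078, limma adjusted p = 1.38e-06) and to 28.9% in L-EPSCs (log2 fold change -1.78, SE 0.078, limma adjusted p = 1.56e-06). Zfp42 (Rex1), a zinc finger factor widely used as a reporter of the naive state, was at 9548 and 9435 in ESCs, 7709.6 and 7763 in D-EPSCs and 8215 and 8256 in L-EPSCs. Although the groups did not overlap, the differences were small and under the threshold in D-EPSCs (log2 fold change -0.29, SE 0.02, limma adjusted p = 1.53e-05) and L-EPSCs (log2 fold change -0.20, SE 0.02, limma adjusted p = 0.000108).

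Directly between the EPSC types, 2 members were higher in the libraries labelled L-EPSC than in those labelled D-EPSC and none was lower, against 4.8% higher and 8.58% lower of all genes. Those were Tfcp2l1 (log2 fold change 1.34, SE 0.031, limma adjusted p = 2.33e-07) and Klf5 (log2 fold change 0.65, SE 0.047, limma adjusted p = 4.05e-05). The Klf5 call was lost without L-EPSC replicate 2, at a log2 fold change of 0.60. Wnt target genes differed in the same direction between these libraries, with 5 of 6 called higher in L-EPSCs, and ERK feedback genes with 5 of 7. What part these signals have in the Tfcp2l1 and Klf5 values was not tested.

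A conversion from ESCs to untreated L-EPSCs was also measured in each tet-off line. The medium of the tet-off ESCs is not given, so their starting state may differ from that of J1 ESCs. In the Oct4-cKO line 6 members were lower in L-EPSCs and none was higher, against 15.4% and 13% of 24007 genes tested. In the Sox2-cKO line 3 were lower and 1 was higher, against 11.6% and 7.99%. For Nanog-cKO cells 7 were lower and none was higher, against 14.7% and 12.2%. The medians of the members were -0.83, -0.43 and -1.14 in the order of the lines above, with a median of 0 over all genes in each. Of genes whose mean was 10 or more, between 16.7% and 21.4% were lower. The 2 replicates of a group lay close together, as the plot of values by library shows.

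Nr0b1 had the lowest log2 fold change of the members in every tet-off line, whereas in J1 its L-EPSC mean was above that of ESCs. It was at 1208 and 1238 in Oct4-cKO ESCs and 123 and 106 in L-EPSCs, 9.38% of the ESC level (log2 fold change -3.41, SE 0.29, limma adjusted p = 4.71e-08). In the Sox2-cKO line it went from 1613 and 1555 to 291 and 281, or 18.05% (log2 fold change -2.47, SE 0.29, limma adjusted p = 3.75e-06). Nanog-cKO cells went from 2092 and 2128 to 153 and 171, or 7.69% (log2 fold change -3.69, SE 0.29, limma adjusted p = 1.92e-08). The opposite direction in J1 and the tet-off lines was seen in all libraries of each and was not tested, since the tables were normalized separately. With the medium of the tet-off ESCs not given, a difference between the starting ESCs cannot be told apart from one between the lines. The ERK feedback genes differed in the same sense between the lines, higher in J1 L-EPSCs than J1 ESCs and lower in tet-off L-EPSCs, where 7 of 7 were called lower in each line.

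Esrrb fell from 10505 and 10502 to 3660.4 and 3642 in the Oct4-cKO line (log2 fold change -1.52, SE 0.05, limma adjusted p = 4.13e-13). It fell in the Nanog-cKO line from 17303 and 17950.1 to 8181 and 8093 (log2 fold change -1.11, SE 0.05, limma adjusted p = 1.98e-11). In the Sox2-cKO line it went from 8376 and 8372 to 5570.0 and 5493, which was just short of the threshold (log2 fold change -0.60, SE 0.05, limma adjusted p = 7.62e-08) and passed it without L-EPSC replicate 1 (-0.61). The Esrrb change of the Oct4-cKO line was lower than that of the Sox2-cKO line by an interaction test (difference -0.93, SE 0.071, limma adjusted p = 1.05e-07). Nr5a2 was the exception among the receptors. It rose in the Sox2-cKO line, from 448 and 492 to 778 and 715 (log2 fold change 0.67, SE 0.074, limma adjusted p = 1.96e-06). In the Oct4-cKO line it was at 757 and 790.0 and then 697 and 778, which overlapped (log2 fold change -0.07, SE 0.074, limma adjusted p = 0.498). Nanog-cKO cells had 699 and 713 and then 567 and 515 (log2 fold change -0.39, SE 0.074, limma adjusted p = 0.000396). The Nr5a2 change in the Sox2-cKO line differed from that in the Nanog-cKO line (1.05, SE 0.10, limma adjusted p = 1.42e-06).

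Klf5 and Tbx3 fell most in the Nanog-cKO line. Klf5 was at 5584 and 5755 in Nanog-cKO ESCs and 1191 and 1294 in L-EPSCs (log2 fold change -2.19, SE 0.056, limma adjusted p = 2.12e-14). In the Oct4-cKO line Klf5 went from 3929 and 4091 to 2151 and 2238 (log2 fold change -0.87, SE 0.056, limma adjusted p = 1.41e-09), and in the Sox2-cKO line from 2298 and 2309.8 to 1744 and 1516 (log2 fold change -0.50, SE 0.056, limma adjusted p = 1.94e-06), where it passed without L-EPSC replicate 1 (-0.603). The Klf5 change was lower in the Nanog-cKO line than in the Oct4-cKO line (Oct4 minus Nanog 1.32, SE 0.079, limma adjusted p = 4.1e-09) and the Sox2-cKO line (Sox2 minus Nanog 1.69, SE 0.079, limma adjusted p = 3.58e-10). Tbx3 went from 7078 and 6829 to 1272 and 1227 in the Nanog-cKO line (log2 fold change -2.48, SE 0.042, limma adjusted p = 1.46e-16). It went from 6873 and 6938 to 3586 and 3578 in the Oct4-cKO line (log2 fold change -0.95, SE 0.042, limma adjusted p = 1.3e-11) and from 5021 and 5102 to 3327 and 3118 in the Sox2-cKO line (log2 fold change -0.65, SE 0.042, limma adjusted p = 2.96e-09). The Tbx3 change in the Nanog-cKO line was likewise lower than in the Oct4-cKO line (1.53, SE 0.059, limma adjusted p = 2.55e-11) and the Sox2-cKO line (1.82, SE 0.059, limma adjusted p = 4.87e-12). Both Nanog-cKO ESC libraries had more Klf5 than any other tet-off library.

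Zfp42 fell in all 3 tet-off lines, while in J1 L-EPSCs it was lower by less than the threshold (-0.20). It went from 11972 and 11710.0 to 3344 and 3286 in the Oct4-cKO line (log2 fold change -1.84, SE 0.053, limma adjusted p = 9.41e-14), from 5811 and 5957 to 3099 and 3049 in the Sox2-cKO line (log2 fold change -0.94, SE 0.053, limma adjusted p = 6.74e-10) and from 5554 and 5587 to 1748 and 1892 in the Nanog-cKO line (log2 fold change -1.61, SE 0.053, limma adjusted p = 4.71e-13). Klf4 fell to 58.2% of the ESC level in the Oct4-cKO line (log2 fold change -0.78, SE 0.057, limma adjusted p = 6.88e-09) and 44.5% in the Nanog-cKO line (log2 fold change -1.17, SE 0.057, limma adjusted p = 5.38e-11), and was at 78.3% in the Sox2-cKO line (log2 fold change -0.35, SE 0.057, limma adjusted p = 0.000103). Klf2 and Prdm14 passed in none of the 3 lines. Klf2 was at 75.5%, 109% and 81.98% of the ESC level in the Oct4-, Sox2- and Nanog-cKO lines. Prdm14 was at 87.00%, 134% and 100.1%, where the J1 L-EPSCs had been at 28.9%. Tfcp2l1 was at 94.5%, 83.2% and 65.7%, where J1 L-EPSCs had been at 23.2%. It passed the threshold in the Nanog-cKO line (log2 fold change -0.61, SE 0.031, limma adjusted p = 1.06e-10), a call lost with edgeR or TMM scaling (-0.57) and without untreated L-EPSC replicate 1 (-0.58), and was lower by less than that in the Oct4-cKO line (log2 fold change -0.082, SE 0.031, limma adjusted p = 0.0442) and the Sox2-cKO line (log2 fold change -0.27, SE 0.031, limma adjusted p = 3.82e-06). The differences between the lines were under the threshold.

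By the interaction tests, 4 members had a lower conversion effect in the Oct4-cKO than in the Sox2-cKO line and none a higher one, against 4.09% and 5.91% of all genes. Of those 4, the Prdm14 call was lost without untreated L-EPSC replicate 1 of the Oct4-cKO line (log2 difference -0.49, limma adjusted p = 0.0679) or of the Sox2-cKO line (-0.595, limma adjusted p = 0.0509). Nr0b1 joined them with edgeR or DESeq2 (-0.94 in each). Its limma SE is shared over all 9 tet-off groups, among them the Dox libraries with at most 1 read. Between the Oct4-cKO and the Nanog-cKO line 2 were higher and none lower, against 7.55% and 7.18%. Between the Sox2-cKO and the Nanog-cKO line 6 were higher and none lower, against 6.7% and 8.09%. Of those 6, the Nr0b1 call was lost whenever any single library of either line's ESCs or untreated L-EPSCs was left out.

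**Figure D3:**
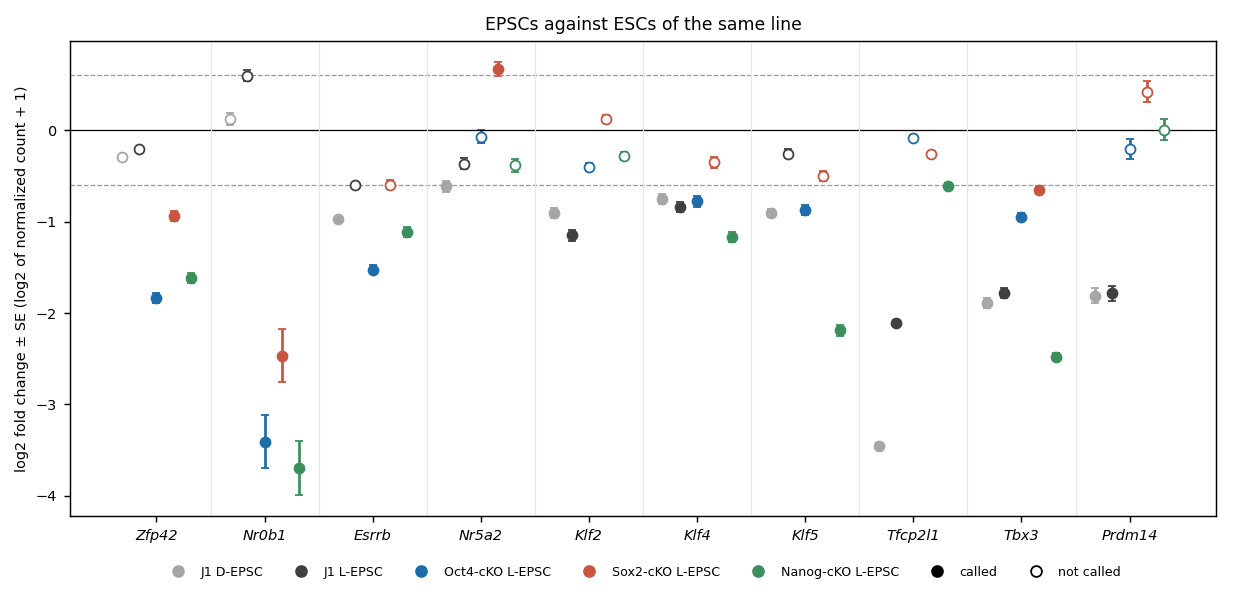
Log2 fold change of each member in EPSCs against ESCs of the same line, with the SE of the limma fit, and filled points where the call passed. Dashed lines mark 0.6 in either direction. Nr0b1 lies above 0 in J1 and between -3.69 and -2.47 in the tet-off lines. For Tfcp2l1 and for Prdm14, both J1 points lie below those of the same gene in every tet-off line.

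The Dox comparisons ask what happens to the members in L-EPSCs once the transgene is shut off. With Dox, 8 members were lower in the Oct4-cKO line and 8 in the Sox2-cKO line and none was higher, at a log2 fold change beyond 1. Of all genes, 10.8% were lower and 8.53% higher in the Oct4-cKO line, and 7.32% and 7.79% in the Sox2-cKO line. Of genes whose mean was 10 or more, 14.9%, 9.99% and 3.78% were lower in the Oct4-, Sox2- and Nanog-cKO lines. In the Nanog-cKO line 1 member, Nr0b1, was called lower and none higher, against 2.59% and 2.8%. That call was lost in 7 alternative settings. Of the members there, 7 had a log2 fold change below 0 and 3 above it. Klf4 at 50.1% and Esrrb at 53.4% of the untreated level stayed under the threshold. The medians of the members were -1.94, -1.67 and -0.16, with a median of 0 over all genes in each line. Nr0b1 lies below these medians in the first 2 lines also when taken at its bound given below. The Dox samples share their untreated L-EPSCs with the conversion comparisons above.

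Of the nuclear receptors, Nr0b1 and Esrrb fell in both the Oct4-cKO and the Sox2-cKO line. Nr0b1 went from 123 and 106 to 1.15 and 0.00 in the Oct4-cKO line, where 1 read was left in 2 libraries against 257. This is a ratio of 203-fold, with an exact 95% counting interval of 36.1 to 8048. In the Sox2-cKO line it went from 291 and 281 to no read in either library, which is at least 116-fold lower when 3 reads per library are allowed. Nr0b1 of the Nanog-cKO line went from 153 and 171 to 109.8 and 56.2 (log2 fold change -1.03, SE 0.29, limma adjusted p = 0.0146), a call that edgeR and DESeq2 did not make, with fold changes of -0.92. Without Dox replicate 2 of that line it was -0.56. Esrrb went from 3660.4 and 3642 to 47.2 and 39.96 in the Oct4-cKO line (log2 fold change -6.36, SE 0.05, limma adjusted p = 6.26e-21), or 1.19% of the untreated level. In the Sox2-cKO line it went from 5570.0 and 5493 to 609.6 and 614 (log2 fold change -3.17, SE 0.05, limma adjusted p = 8.95e-17), or 11.1%. In the Nanog-cKO line it was at 8181 and 8093 and 4376 and 4307 (log2 fold change -0.91, SE 0.05, limma adjusted p = 1.58e-09), beyond the spread of the libraries but under the threshold. The fall in Esrrb was larger in the Oct4-cKO than in the Sox2-cKO line (difference -3.19, SE 0.071, limma adjusted p = 3.57e-14).

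Nr5a2, by contrast, passed in no line. With Dox it was at 600.0 and 647 in the Oct4-cKO line, 652 and 696 in the Sox2-cKO line and 739.6 and 791 in the Nanog-cKO line, against untreated values of 697 and 778, 778 and 715 and 567 and 515. The log2 fold changes were -0.24, -0.15 and 0.50. This receptor, which binds sites like those of Esrrb, was at 84.5% of its untreated level in Dox-treated Oct4-cKO L-EPSCs, where Esrrb was at 1.19%.

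Prdm14 fell in the same 2 lines. It went from 485 and 586 to 34.5 and 42.2 in the Oct4-cKO line (log2 fold change -3.77, SE 0.11, limma adjusted p = 1.06e-13) and from 540.1 and 519 to 33.00 and 35.2 in the Sox2-cKO line (log2 fold change -3.92, SE 0.11, limma adjusted p = 1.42e-13). The difference between these did not pass (0.15, SE 0.16, limma adjusted p = 0.596). Prdm14 of the Nanog-cKO line was at 411 and 385 without and 365 and 402 with Dox, which overlapped (log2 fold change -0.054, SE 0.11, limma adjusted p = 0.866). Zfp42 was at 23.97% of the untreated level in the Oct4-cKO line (log2 fold change -2.06, SE 0.053, limma adjusted p = 1.45e-14) and 24.6% in the Sox2-cKO line (log2 fold change -2.02, SE 0.053, limma adjusted p = 3.73e-14), against 85.3% in the Nanog-cKO line (log2 fold change -0.23, SE 0.053, limma adjusted p = 0.00417).

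Klf2 and Klf5 differed between the Oct4-cKO and the Sox2-cKO line. Klf2 fell in the Oct4-cKO line from 2445 and 2375 to 691 and 690.4 (log2 fold change -1.80, SE 0.045, limma adjusted p = 1.06e-14), while in the Sox2-cKO line it was at 2419 and 2354 and then 1909.7 and 2007 (log2 fold change -0.29, SE 0.045, limma adjusted p = 6.99e-05). Klf5 was at 2151 and 2238 and then 1898 and 1845 in the Oct4-cKO line (log2 fold change -0.23, SE 0.056, limma adjusted p = 0.00282), while in the Sox2-cKO line it fell from 1744 and 1516 to 591 and 585 (log2 fold change -1.47, SE 0.056, limma adjusted p = 3.36e-12). The difference between the lines had opposite signs for the pair, with an Oct4 minus Sox2 difference of -1.52, SE 0.064, limma adjusted p = 6.08e-11 for Klf2 and 1.24, SE 0.079, limma adjusted p = 7.2e-09 for Klf5. In the Nanog-cKO line Klf5 was higher with Dox in both libraries, at 2016 and 1909 against 1191 and 1294, but under the threshold (log2 fold change 0.66, SE 0.056, limma adjusted p = 2.08e-07). Klf4 fell in the Oct4-cKO line from 2479 and 2449.6 to 758 and 855 (log2 fold change -1.61, SE 0.057, limma adjusted p = 7.28e-13) and in the Sox2-cKO line from 2053 and 1892 to 525 and 572 (log2 fold change -1.84, SE 0.057, limma adjusted p = 2.83e-13). Its values in the Nanog-cKO line were 2393 and 2517 and 1227 and 1234, just short of the threshold (log2 fold change -0.995, SE 0.057, limma adjusted p = 2.27e-09), which was passed without untreated replicate 1 (-1.03).

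Tbx3 differed between all 3 lines. It fell from 3586 and 3578 to 398 and 381 in the Oct4-cKO line (log2 fold change -3.20, SE 0.042, limma adjusted p = 3.64e-18) and from 3327 and 3118 to 1472 and 1592 in the Sox2-cKO line (log2 fold change -1.07, SE 0.042, limma adjusted p = 4.28e-12). In the Nanog-cKO line it was higher with Dox, at 2245 and 2215 against 1272 and 1227, under the threshold (log2 fold change 0.84, SE 0.042, limma adjusted p = 4.76e-10). The differences were -2.12, SE 0.059, limma adjusted p = 3.97e-13 for Oct4 minus Sox2 and -1.91, SE 0.059, limma adjusted p = 1.09e-12 for Sox2 minus Nanog. Tfcp2l1 fell to 28.3% of the untreated level in the Oct4-cKO line (log2 fold change -1.82, SE 0.031, limma adjusted p = 1.09e-16) and to 35.5% in the Sox2-cKO line (log2 fold change -1.50, SE 0.031, limma adjusted p = 2.35e-15), against 88.9% in the Nanog-cKO line (log2 fold change -0.17, SE 0.031, limma adjusted p = 0.000659).

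By the interaction tests of Dox, 2 members had a higher and 3 a lower effect in the Oct4-cKO than in the Sox2-cKO line, against 2.12% and 4.69% of all genes. The higher ones were Klf5 and Nr0b1, and the fitted difference of Nr0b1 rests on libraries with no or 1 read and was not called by edgeR or DESeq2. Oct4 minus Nanog, 7 were lower and none higher, against 8.59% and 6.17%. Sox2 minus Nanog, 7 were lower and none higher, against 5.74% and 5.57%.

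**Figure D4:**
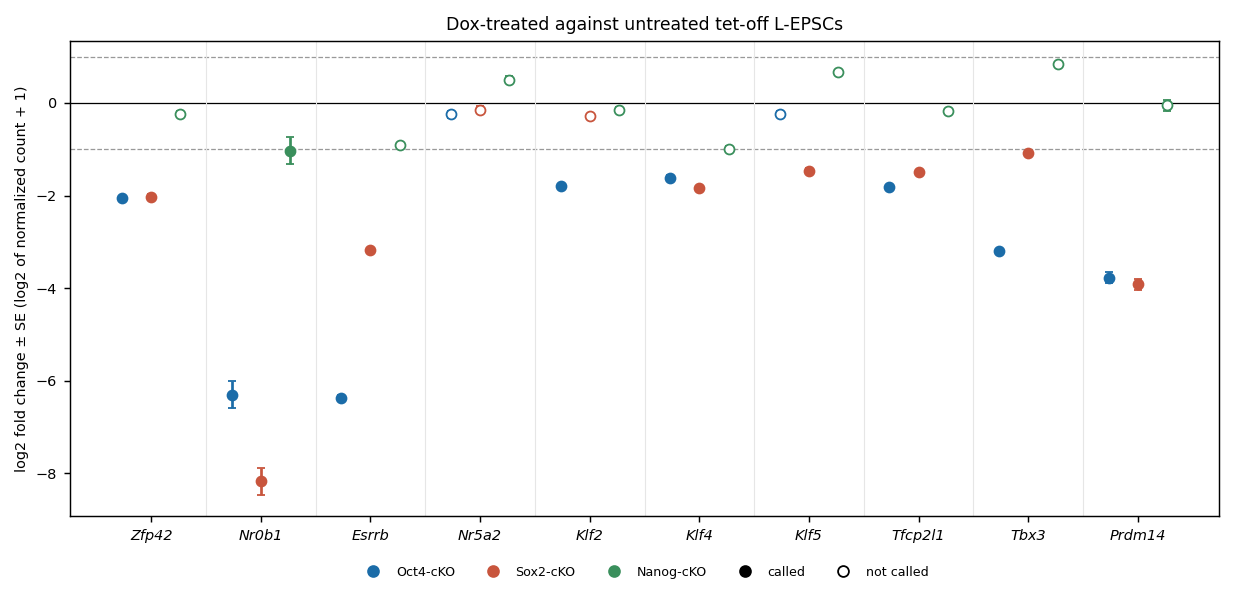
Log2 fold change of each member in Dox-treated against untreated L-EPSCs of each tet-off line, with the SE of the limma fit, and filled points where the call passed. Dashed lines mark 1 in either direction. Nr5a2 lies between -0.24 and 0.50 in all lines, and Klf2 and Klf5 change places between the Oct4-cKO and Sox2-cKO lines. Fitted Nr0b1 values of the Oct4-cKO and Sox2-cKO lines rest on libraries with at most 1 read and are no bound.

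Genes of other fates moved beside the members. Of 10 trophoblast genes, 7 were called higher with Dox in the Oct4-cKO line and 8 in the Sox2-cKO line, and none was lower. Their sum went from 1939 to 1975 to 9806 to 9965 in the Oct4-cKO line and from 1297 to 1305 to 5221 to 5264 in the Sox2-cKO line, but from 745 to 859.6 to 661 to 709 in the Nanog-cKO line. Of 8 primitive endoderm genes, 1 was higher and 3 were lower in the Oct4-cKO line, 2 and 3 in the Sox2-cKO line, and 0 and 1 in the Nanog-cKO line. Of the 7 formative and primed genes tested, 1 was higher and 5 were lower in the Oct4-cKO line and 1 and 4 in the Sox2-cKO line, while 2 were higher and 1 lower in the Nanog-cKO line. In the conversion of each tet-off line, none of the 7 was higher and 5 were lower. ERK feedback genes were lower with Dox for 6 of 7 in both the Oct4-cKO and the Sox2-cKO line and for 1 in the Nanog-cKO line. What part a changed mix of cells has in the members' values was not tested.

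Other genes of the naive network, 25 of them, gave a frame for the members. In the libraries labelled D-EPSC, 4 were higher and 7 lower, and in those labelled L-EPSC 3 and 10. The lowest in D-EPSCs was Nanog (log2 fold change -1.85, SE 0.031, limma adjusted p = 1.91e-08) and the highest Gbx2 (log2 fold change 1.79, SE 0.084, limma adjusted p = 2.17e-06), a homeobox gene that LIF raises. In L-EPSCs the lowest was Jam2 (log2 fold change -2.74, SE 0.069, limma adjusted p = 1.29e-07) and the highest again Gbx2 (log2 fold change 2.34, SE 0.084, limma adjusted p = 5.93e-07). Between L-EPSCs and D-EPSCs 4 were higher and 4 lower.

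During conversion of the tet-off lines, 3 of the 25 were higher and 13 lower in the Oct4-cKO line, 2 and 11 in the Sox2-cKO line, and 4 and 13 in the Nanog-cKO line. Dppa3, a maternal factor that guards methylation, was the highest in the Oct4-cKO (log2 fold change 4.10, SE 0.13, limma adjusted p = 3.31e-13) and Nanog-cKO lines (log2 fold change 2.54, SE 0.13, limma adjusted p = 1.21e-10). With Dox, 1 was higher and 19 lower in the Oct4-cKO line, 1 and 17 in the Sox2-cKO line, and 2 and 4 in the Nanog-cKO line. The gene that was higher in the first 2 of these was Tfap2c, a factor shared with trophoblast (log2 fold change 1.45, SE 0.041, limma adjusted p = 4.89e-14 and log2 fold change 1.01, SE 0.041, limma adjusted p = 7.97e-12). The list holds the targeted genes, which Dox lowers by design. In the Nanog-cKO line Dppa3 was highest with Dox (log2 fold change 1.96, SE 0.13, limma adjusted p = 1.48e-08) and Tcl1 lowest (log2 fold change -1.91, SE 0.17, limma adjusted p = 3.86e-07).

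Across the 9 group means of the tet-off lines, most members followed each other. Pearson's r of log2 values over the 45 pairs ran from -0.046 to 0.967, with a median of 0.769, and 21 pairs were above 0.8. The closest pair was Tfcp2l1 and Nr0b1 at 0.967, and the next Esrrb and Klf2 at 0.950. Nr0b1 had at most 1 read per library with Dox in the Oct4-cKO and Sox2-cKO lines. Its r values here and below therefore depend on the pseudocount of 1. All 9 pairs that hold Nr5a2 were at 0.229 or below, and Klf2 with Klf5 was at 0.326. The points share lines, media and libraries, so these values describe the 9 groups and carry no test.

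**Figure D5:**
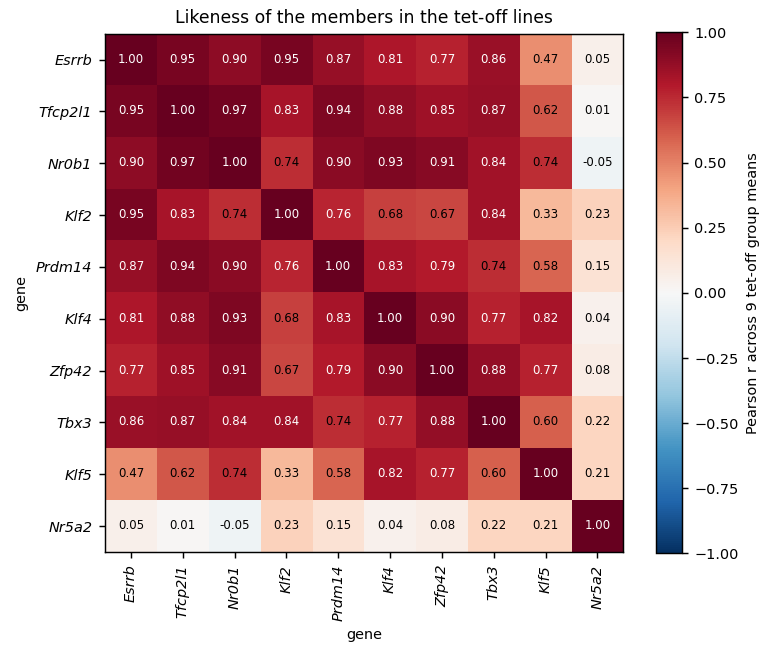
Pearson r between members across the 9 group means of log2(normalized count + 1) in the tet-off lines. Red is positive and blue negative. The row of Nr5a2 lies between -0.046 and 0.229, and 21 of the 45 pairs are above 0.8.

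Among 9916 other genes whose mean normalized count was 100 or more, the one most like each member over the same 9 means was Espl1 for Esrrb (0.993), Nop10 for Klf4 (0.993), Bub1b for Nr0b1 (0.991), Nmnat2 for Tfcp2l1 (0.990) and Api5 for Prdm14 (0.984). It was Wrnip1 for Klf2 (0.983), Gpc4 for Tbx3 (0.978), Etv1 for Zfp42 (0.976) and Kpna2 for Klf5 (0.953). Nr5a2 had the least similar partner, Zfp951 at 0.896. With 9 points and so many genes searched, high values arise readily, and they are given as a description only.

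The members lie on NCBIM37 at chr12:87702067-87862578 (Esrrb), chr1:138740161-138857004 (Nr5a2), chrX:83437103-83441286 (Nr0b1), chr8:74842932-74845555 (Klf2), chr4:55540013-55545347 (Klf4), chr14:99697910-99712624 (Klf5), chr1:120524522-120581744 (Tfcp2l1), chr5:120120678-120134733 (Tbx3), chr8:44380422-44392363 (Zfp42) and chr1:13103538-13117244 (Prdm14). Esrrb, Klf2, Klf5, Tfcp2l1, Tbx3 and Nr0b1 are on the plus strand and the others on the minus strand.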

How the data were processed

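Poly(A) RNA of 24 libraries was sequenced and, per the methods, the authors trimmed reads with Trim Galore 0.6.4, aligned them to mm9/NCBIM37 with STAR 2.7.9a and counted them per gene with HTSeq 0.11.2. The deposited values are a signal, gene counts divided by DESeq2 size factors, in 1 table for J1 and 1 for the tet-off lines. At least 99.9957% of the values in a library were whole multiples of 1 read (tolerance 0.01), so reads were recovered, 10807631 to 15069899 per library. These were used for edgeR and DESeq2 only. In the plan the branch for normalized values applied.

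Groups follow the titles of the samples. The test was limma 3.58.1 (R 4.3.3) with a trend, two-sided, on log2 of the normalized count plus a pseudocount of 1. Each table was fitted once with its groups together, on genes with at least 2 reads, and Benjamini-Hochberg adjustment over all genes of a comparison. Calls needed both an adjusted p under 0.05 and a change past 0.6 on the log2 scale, or past 1 for Dox. Fold changes on this scale understate those of low genes. With 2 against 2, exact permutation of 1 gene gives no p under 0.333. Differences between lines were interaction contrasts. Replicates differed by more than sampling noise (chi-square per gene 1.67 to 2.65). The script was tested on simulated data.

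Alternatives were median centring, TMM scaling, a minimum mean of 10, no filter, a pseudocount of 0.1, the groups alone, the replicate block, edgeR 4.0.16, DESeq2 1.42.0, the other fold change threshold and leaving out each replicate. Proteins were not analysed here. Promoters are RefSeq windows of GRCm38.p6, and gene positions were matched by gene ID to NCBIM37 annotation, whose exon lengths gave levels per kilobase. The named genes are all 10 members, the 3 targeted genes, the gene most like each member, and of 25 other network genes the 2 highest and 2 lowest called. The members and lists (ERK, Wnt, LIF and Stat3, fibroblast, trophoblast, primitive endoderm and formative genes) were chosen with earlier results of these data known.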

Additional observations from a re-analysis of the deposited data

Results flagged for a closer look

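The members' effects differed between the tet-off lines in 31 interaction tests (limma, adjusted p under 0.05, and a log2 difference beyond 0.6 for conversion or 1 for Dox). Each contrast tested all 10 members, and between 2.12% and 8.59% of all genes were called in each direction. For the conversion of ESCs to L-EPSCs, Oct4 minus Sox2, the log2 differences were -0.93 for Esrrb, -0.74 for Nr5a2, -0.62 for Prdm14 and -0.90 for Zfp42. That of Prdm14 did not pass without untreated L-EPSC replicate 1 of the Oct4-cKO line (-0.49) or of the Sox2-cKO line (-0.595). Oct4 minus Nanog, they were 1.32 for Klf5 and 1.53 for Tbx3. Sox2 minus Nanog, they were 0.81 for Klf4, 1.69 for Klf5, 1.82 for Tbx3, 1.23 for Nr0b1, 1.05 for Nr5a2 and 0.68 for Zfp42. That of Nr0b1 did not pass with a pseudocount of 0.1, or when any single library of either line's ESCs or untreated L-EPSCs was left out.

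For Dox, Oct4 minus Sox2, the log2 differences were 1.24 for Klf5, -2.12 for Tbx3, -3.19 for Esrrb, 1.87 for Nr0b1 and -1.52 for Klf2. Oct4 minus Nanog, they were -4.03 for Tbx3, -5.45 for Esrrb, -5.26 for Nr0b1, -1.65 for Tfcp2l1, -3.72 for Prdm14, -1.83 for Zfp42 and -1.66 for Klf2. Sox2 minus Nanog, they were -2.13 for Klf5, -1.91 for Tbx3, -2.27 for Esrrb, -7.13 for Nr0b1, -1.33 for Tfcp2l1, -3.87 for Prdm14 and -1.80 for Zfp42. The 3 Dox values of Nr0b1 rest on libraries with at most 1 read and depend on the pseudocount.

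For Nr0b1, Klf2, Nr5a2 and Prdm14, all libraries of L-EPSCs lay to one side of the ESCs in J1 and to the other in a tet-off line. For Klf2, Nr5a2 and Prdm14 this was the Sox2-cKO line only. The share of all genes that do so was not counted, and 2 libraries separate readily from 2 others. The difference between J1 and the tet-off lines was not tested, because the 2 tables were normalized separately. The medium of the tet-off ESCs is also not given, so the starting ESCs may differ. The log2 fold change of Nr0b1 was 0.60 in J1 and -3.41, -2.47 and -3.69 in the Oct4-, Sox2- and Nanog-cKO lines. That of Klf2 was -1.15 in J1 and 0.12 in the Sox2-cKO line, that of Nr5a2 -0.37 and 0.67, and that of Prdm14 -1.78 and 0.42. ERK feedback genes were also higher in L-EPSCs than in ESCs of J1 and lower in each tet-off line.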

How the results depend on the processing

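No member result that was called, in the main fit or under the alternative, turned its direction. Turns of sign between 2 fits without a call were not counted. Of 1440 member results under alternatives that kept all libraries, 1396 kept their call. At the other fold change threshold (1 for J1 and conversion, 0.6 for Dox), members called numbered 3 for J1 D-EPSCs. They numbered 1 for J1 L-EPSCs against D-EPSCs, and 3 and 1 for conversion in the Oct4- and Sox2-cKO lines. The Oct4 minus Sox2 conversion difference had 0, and Dox in the Nanog-cKO line 5, of which 2 were higher and 3 lower. Of 21533 genes tested in J1, all genes called then numbered 2899 for L-EPSCs against ESCs and 1836 for L-EPSCs against D-EPSCs. Of 24007 in the tet-off lines, they numbered 4466, 2990 and 4196 for conversion in the Oct4-, Sox2- and Nanog-cKO lines. For Dox they numbered 5568 and 2386 in the Sox2- and Nanog-cKO lines. Counts, here and without 1 library, are listed only for comparisons where they moved beyond 1.5 times or to 0. For Dox in the Nanog-cKO line, 0 members were called with a pseudocount of 0.1, the 2 groups alone, edgeR or DESeq2, and 479 genes in all with the 2 groups alone, against 1293.

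Without 1 library, members called ranged from 1 to 2 for L-EPSCs against D-EPSCs (all genes 1913 to 2104) and from 0 to 1 for Dox in the Nanog-cKO line, where without Dox replicate 2 or untreated replicate 2 it was 0. The lowest all-gene count came without D-EPSC replicate 2. Without untreated replicate 1 of the Nanog-cKO line, Klf4 passed for Dox (log2 fold change -1.03) and Nr0b1, at -1.11, did not. The lone library left in a group was assumed to vary like the other groups.

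The replicate numbers did not pair the libraries, with correlations of deviations between -0.062 and 0.063. With the replicate block, 0 of 150 member results had another call, and 8 members were called for Dox in the Oct4-cKO line as without it. Scaling shifted log2 fold changes by a median of less than 0.1 over genes whose mean normalized count was 10 or more. Depth limits Nr0b1, which had at most 1 read per library with Dox in the Oct4- and Sox2-cKO lines, and intervals cover counting error only.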
